A study of Mus musculus with 24 samples.

Results

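The RNA levels of 9 genes for histone acetyltransferases and coactivators other than the mutated *Kat6a* were followed, namely *Kat2a*, *Kat2b*, *Kat5*, *Kat8*, *Ep300*, *Crebbp*, *Hat1*, *Ncoa1* and *Ncoa3*. They were taken by symbol from the count tables, where all 9 were found among 26411 genes, and all 9 passed the filter on low counts in every fit. The neural stem and progenitor cells (NSPCs) came from the dorsal telencephalon, the forerunner of the cerebral cortex, of C57BL/6 mouse embryos at embryonic day 12.5. The embryos were *Kat6a*+/+ (wildtype), *Kat6a*+/- (heterozygous) or *Kat6a*-/- (homozygous mutant), and the mutant allele is a germline deletion of exons that brings a premature stop codon into the sequence for the catalytic domain. RNA was collected after 3 days either in neurosphere medium with FGF2 and EGF on uncoated plastic (proliferating) or on poly-L-ornithine and laminin with serum (differentiating), with 4 libraries per genotype and condition. Per the study, *Kat6a*+/+ cells floated as neurospheres in the first medium while many mutant colonies attached, so attachment and genotype cannot be told apart. The question was how the RNA of these enzymes differed between the 3 genotypes in each condition and between the conditions.

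Acetyltransferases move an acetyl group from acetyl-coenzyme A to lysines. KAT2A (GCN5) and KAT2B (PCAF) are alternative catalytic subunits of the SAGA and ATAC coactivator complexes and act mainly on histone H3. KAT5 (TIP60) and KAT8 (MOF) belong, like KAT6A, to the MYST family, with KAT5 in the NuA4 complex and KAT8 in the MSL and NSL complexes, where MSL acetylates lysine 16 of histone H4. EP300 (p300) and CREBBP (CBP) are large paralogous coactivators that acetylate H3 lysine 18 and 27 at enhancers and promoters. HAT1 acetylates newly made histone H4 before it is placed on replicated DNA. NCOA1 (SRC-1) and NCOA3 (SRC-3) bind nuclear hormone receptors and bring in EP300 and CREBBP.

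Library totals ran from 7826660 to 40838203 counts, and a member had between 195 and 6878 counts in any library. The proliferating cells stemmed from 5 litters and the differentiating cells from 7, with 6 embryos named in both sets. Litter and genotype were partly confounded, since in each condition some *Kat6a*+/+ libraries came from litters without a *Kat6a*-/- library, and the reverse. P-values measure the spread between embryos. The fits across both conditions blocked by litter and not by embryo, so the shared embryos were not paired. The differentiating fit and the permutation tests had no litter block and treated littermates as independent. One further litter label of each set differs from the other by swapped digits, and both were kept as given. In each condition Y-linked reads were seen in 3 of 4 *Kat6a*+/+ but only 1 of 4 *Kat6a*+/- and 1 of 4 *Kat6a*-/- libraries, so sex and genotype were partly confounded. *Kat6a* counted over the whole gene does not check the labels, since the deletion covers only some exons. It was 373 to 409 CPM in *Kat6a*+/+, 333 to 368 CPM in *Kat6a*+/- and 334 to 389 CPM in *Kat6a*-/- when proliferating, and 239 to 292, 215 to 257 and 160.0 to 253 CPM when differentiating (log2 fold-change of -0.69, FDR 3.33e-05 in *Kat6a*-/- against *Kat6a*+/+). Summed over 15 genes of S, G2 and M phase, *Kat6a*-/- libraries stood at 2222 to 3951 CPM (counts divided by scaled library size) when proliferating and 154 to 356 CPM when differentiating, against 4016 to 4461 and 884 to 1487 CPM in *Kat6a*+/+. Proliferating *Kat6a*-/- replicate 4 was the library at 2222 CPM, apart from the other 3 of its group at 3600 CPM or above. Its litter held no *Kat6a*+/+ library. Differentiating *Kat6a*-/- replicate 2 also stood apart, with 5193 CPM over 7 astrocyte genes where the other 3 had 800.3 to 2339 CPM, and with 43.4 CPM over 8 mesenchymal and meningeal genes where they had 179 to 276 CPM. Neural stem markers were at 5143 CPM or more over 8 genes in every library. In differentiating *Kat6a*-/- against *Kat6a*+/+ NSPCs all 15 cell-cycle genes were lower (median log2 fold-change -2.55), of 8 stem markers 4 were lower and 3 higher (-0.43), of 8 neuronal markers 5 lower and 1 higher (-1.46), of 6 oligodendrocyte markers 4 lower and 1 higher (-0.57), of 7 astrocyte markers 2 lower and 1 higher (0.23), and all 4 mesenchymal and meningeal markers tested were higher (2.20). When proliferating, 6 of 15 cell-cycle genes were lower and 4 of 6 astrocyte markers higher. Of 8 stem markers 3 were lower and 1 higher, of 7 neuronal markers 3 lower and 1 higher, and of 6 oligodendrocyte markers 1 higher. Over all genes tested, 27.7% were lower and 26.7% higher when differentiating, and 13.8% and 16.2% when proliferating. The differentiating calls come from a fit with library quality weights. The part of these marker differences in the members' results was not tested. The summed microglial markers did not pass 0.783 CPM in any library, with *C1qa* and *C1qb* at 0 throughout. In bulk RNA, fewer cells of one type and less RNA per cell cannot be told apart.

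In proliferating *Kat6a*+/+ NSPCs, *Hat1* RNA was the most abundant of the 9 per length, followed by *Kat2a*, while *Kat2b* and *Ncoa3* were the least abundant. As mean CPM per kilobase of counted exon, the order was *Hat1* at 70.6, *Kat2a* at 40.6, *Kat5* at 22.2, *Ep300* at 19.8, *Kat8* at 15.4, *Crebbp* at 13.2, *Ncoa1* at 9.67, *Kat2b* at 7.46 and *Ncoa3* at 6.55. The ranges over 4 libraries overlapped between *Kat5* and *Ep300*, between *Kat8* and *Crebbp*, and between *Kat2b* and *Ncoa3*, and the other neighbours did not overlap. In differentiating *Kat6a*+/+ NSPCs, *Hat1* was still first at 32.2 CPM per kilobase and *Ncoa3* last at 5.23. Between them the other 7 genes lay close together, from 18.3 for *Ep300* to 11.3 for *Kat8*, each overlapping the next in order. In differentiating *Kat6a*-/- NSPCs the ranges of *Hat1* (20.6 CPM per kilobase) and *Kat2b* (20.5) overlapped, and *Kat2b* stood above *Ep300* (16.5) without overlap.

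**Figure D1:**
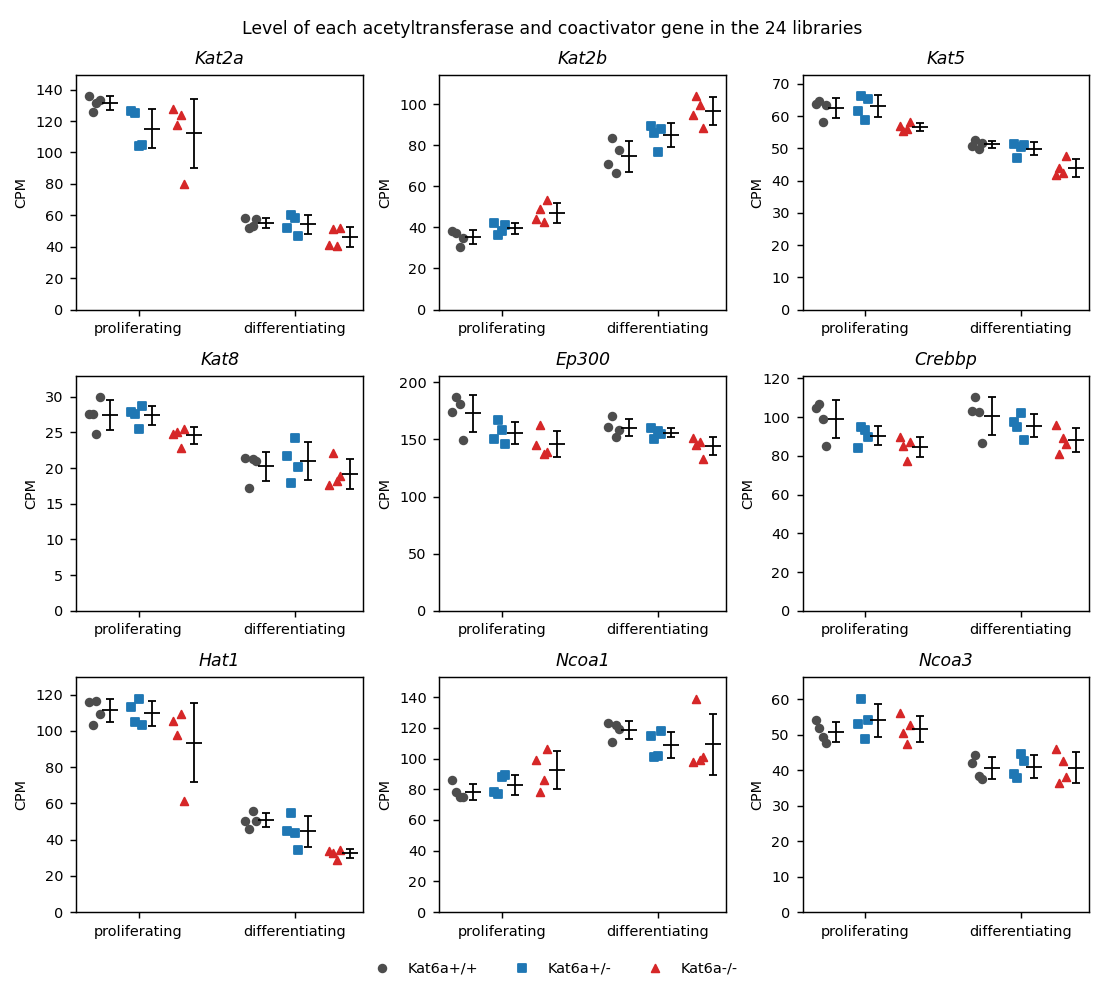
Level of each of the 9 genes in CPM (vertical axis, from 0) in the 24 libraries, by condition and genotype; each point is 1 library, and the bars beside the points give the mean ± SD of 4. *Kat2b* rises and *Kat2a* and *Hat1* fall from proliferating to differentiating NSPCs, with *Hat1* at 28.6 to 34.4 CPM in differentiating *Kat6a*-/- libraries and 46.1 to 55.6 CPM in *Kat6a*+/+.

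In *Kat6a*+/+ NSPCs, 7 of 9 members differed between differentiating and proliferating libraries at a false discovery rate (FDR) under 0.05 across all genes tested, where 72.9% of all genes did. *Kat2b* and *Ncoa1* were higher in differentiating NSPCs (36.7% of all genes were higher), *Kat2a*, *Hat1*, *Kat8*, *Ncoa3* and *Kat5* were lower (36.2% of all genes were lower), and *Ep300* and *Crebbp* did not pass. The same 7 members passed in *Kat6a*+/- NSPCs, where 69.7% of all genes did, with 2 higher (35.4% of genes) and 5 lower (34.2% of genes). In *Kat6a*-/- NSPCs 6 members passed, where 69.2% of all genes did. *Kat2b* was the only member higher (35.8% of genes), 5 were lower (33.5% of genes), and *Ncoa1* missed the threshold. The RNA was extracted with one kit from proliferating and another from differentiating cells, and kit and condition cannot be told apart.

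**Figure D2:**
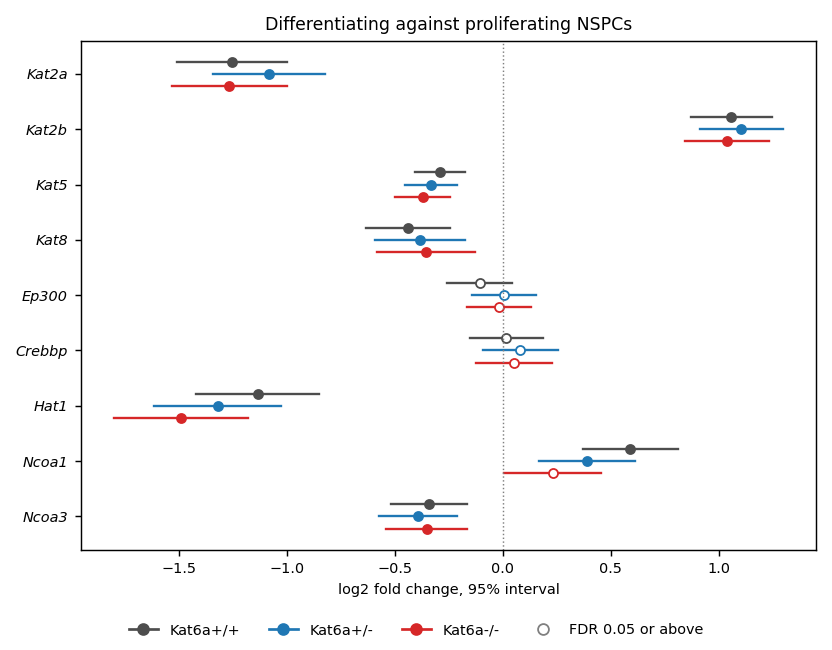
Log2 fold-change of each gene from proliferating to differentiating NSPCs (horizontal axis) in the 3 genotypes, with 95% confidence intervals over 4 against 4 libraries; open circles have an FDR of 0.05 or above. *Kat2b* lies near 1.1 and *Kat2a* and *Hat1* below -1 in all 3 genotypes, while *Ep300* and *Crebbp* lie near 0.

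Within a condition, *Kat6a*-/- NSPCs differed from *Kat6a*+/+ NSPCs in 3 of 9 members when proliferating and in 6 of 9 when differentiating. Over all genes tested the shares were 30.0% and 54.4%, so both counts lay near the background. The differentiating share depended on the method, with 7258 of 13339 genes called here against 3244 with edgeR and 4076 with DESeq2, and these fits do not give the study's own numbers of called genes. In proliferating *Kat6a*-/- NSPCs *Kat2b* rose (16.2% of all genes were higher) while *Ep300* and *Crebbp* fell (13.8% were lower). In differentiating *Kat6a*-/- NSPCs *Kat2b* rose (26.7% of all genes were higher), and *Hat1*, *Kat2a*, *Kat5*, *Ncoa1* and *Crebbp* fell (27.7% were lower). The differentiating calls depended in part on the quality weights, which gave *Kat6a*-/- replicate 3 69.0% and replicate 1 16.8% of the weight of their group. With equal weights *Kat2b*, *Hat1* and *Kat5* stayed called, and *Kat2a*, *Ncoa1* and *Crebbp* did not. Of the proliferating calls, that of *Kat2b* held without any 1 library. Of the differentiating calls, without replicate 3 none of the 9 members passed, where 6.99% of all genes did, and without replicate 1 *Kat2b* and *Hat1* passed, where 9.01% of all genes did. Without replicate 2, the library with 4.2% of the weight, 8 of 9 passed, where 70.6% of all genes did.

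In *Kat6a*+/- NSPCs no member differed from *Kat6a*+/+ in either condition, and 0.0% of all genes did. When differentiating, that share became 2.23% (301 genes) without *Kat6a*+/- replicate 3 and 1.08% (146 genes) without *Kat6a*+/+ replicate 2. At an unadjusted limma p under 0.05 there were 912 genes in proliferating and 1926 in differentiating NSPCs, edgeR called 0 in both, and DESeq2 called 28 and 8. Of the members, *Ep300* in proliferating and *Kat2b* and *Hat1* in differentiating NSPCs were among the genes at that unadjusted p (0.0443, 0.00286 and 0.0313 with limma). Between *Kat6a*-/- and *Kat6a*+/- NSPCs, 1 member passed when proliferating (*Kat2b*, higher), where 14.8% of all genes did (8.47% higher and 6.3% lower). When differentiating, 3 members passed (*Hat1*, *Kat2a* and *Kat5*, all lower), where 37.5% of all genes did (19.1% higher and 18.5% lower). The *Kat6a*-/- effect did not differ between the conditions for any member at FDR under 0.05, where 13.9% of all genes did, and the *Kat6a*+/- effect differed for 0 members and 0.0% of genes (412 genes at an unadjusted p under 0.05, and 0 with edgeR or DESeq2).

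**Figure D3:**
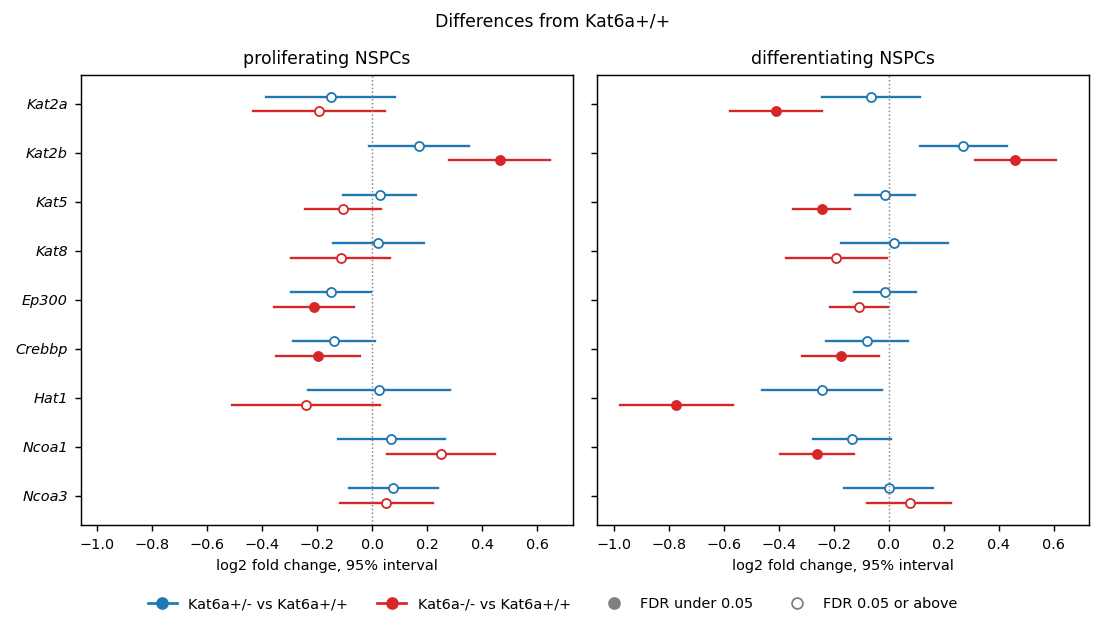
Log2 fold-change of *Kat6a*+/- (blue) and *Kat6a*-/- (red) against *Kat6a*+/+ NSPCs (horizontal axis) for each gene, with 95% confidence intervals, in proliferating (left) and differentiating (right) NSPCs; filled circles have an FDR under 0.05. *Kat2b* is filled on the right of 0 in both conditions for *Kat6a*-/-, *Hat1* lies farthest left in differentiating *Kat6a*-/- NSPCs at -0.77, and no *Kat6a*+/- circle is filled.

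*Kat2a* and *Kat2b*, the paralogous pair of SAGA and ATAC enzymes, moved in opposite directions between the conditions and in differentiating *Kat6a*-/- NSPCs. *Kat2a* (Entrez 14534; mm39 chromosome 11, 100595572 to 100603310, minus strand) and *Kat2b* (Entrez 18519; chromosome 17, 53873889 to 53979749, plus strand) are protein-coding, and counts are over all exons. The bases just before each annotated gene start are shown because the pair moved apart and because *Kat2a* held an E2F word there. Motifs were sought in the 250 bases before the start that the RefSeq promoter table gives for 8 of the members, which is not always the annotated start. Where a gene had several such starts, the window nearest the annotated start was used. The windows of *Kat2a*, *Kat2b*, *Kat5* and *Kat8* reach across the annotated start, and those of *Ep300*, *Crebbp*, *Hat1* and *Ncoa1* lie inside the annotated gene, so they are not like regions. The *Kat2a* window had 1 E2F word and the other 7 had 0. E2F words were TTTCCCGC, TTTCGCGC, TTTGCCGC and TTTGGCGC on either strand, present in 1.86% of 32841 promoter windows of that length, and capitals mark the word. The sequences are from RefSeq, matched to GRCm39 and read 5′ to 3′ on the strand of the gene.
Kat2a, chr11:100603311-100603543, minus strand: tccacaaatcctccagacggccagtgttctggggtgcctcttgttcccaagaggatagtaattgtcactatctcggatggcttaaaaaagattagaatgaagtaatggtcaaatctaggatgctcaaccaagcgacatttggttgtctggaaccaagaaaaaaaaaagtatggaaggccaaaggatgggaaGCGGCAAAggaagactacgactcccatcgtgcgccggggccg
Kat2b, chr17:53873749-53873888, plus strand: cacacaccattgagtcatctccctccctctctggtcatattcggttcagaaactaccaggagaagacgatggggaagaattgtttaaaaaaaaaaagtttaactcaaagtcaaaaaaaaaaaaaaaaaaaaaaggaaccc
The *Kat2b* window held a CCAAT word (letters CCAAT, in 33.9% of windows) that is not within the 140 bases shown, and the same word was in the windows of *Kat5*, *Kat8* and *Hat1*. GC boxes (GGGCGG, 32.7% of windows) were in the windows of *Ncoa1* (7), *Crebbp* (2), *Kat8*, *Ep300* and *Hat1* (1 each), and no member held the CRE word TGACGTCA (1.55% of windows). *Kat2b*, *Kat5* and *Kat8* also had a window farther from the annotated start. That of *Kat5* held 3 GC boxes, that of *Kat8* 1 GC box and 1 CCAAT word, and that of *Kat2b* none of these words. A match is a description of letters, not of a bound site.

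*Kat2b* RNA was lowest in proliferating *Kat6a*+/+ NSPCs, at 38.1, 37.2, 30.5 and 34.6 CPM in replicates 1 to 4. It was 44.0, 49.0, 42.4 and 53.2 CPM in *Kat6a*-/-, every library above every *Kat6a*+/+ library, and 36.5 to 42.1 CPM in *Kat6a*+/-, between the group means of the other genotypes and overlapping *Kat6a*+/+. *Kat6a*-/- exceeded *Kat6a*+/+ by a fitted log2 fold-change of 0.46 (SE 0.09, FDR 0.00189), a 1.38-fold rise that passed in all 18 alternatives (0.36 to 0.54). Against *Kat6a*+/- it was 0.29 (SE 0.08, FDR 0.034), which passed in 6 of 18 alternatives. That call was lost without *Kat6a*-/- replicate 1, 2 or 4 or *Kat6a*+/- replicate 1, 2 or 4 (FDR 0.0546 to 0.196).

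In differentiating NSPCs *Kat2b* was 70.7, 83.5, 66.5 and 77.4 CPM in *Kat6a*+/+, against 94.8, 104, 99.6 and 88.4 CPM in *Kat6a*-/-, again without overlap. The log2 fold-change of 0.46 (SE 0.07, FDR 0.000148) matched that of proliferating NSPCs in size, and the interaction between condition and genotype was -0.02, within -0.08 to 0.09 for all members other than *Hat1* and *Ncoa1*. It passed in 17 of 18 alternatives and was lost without *Kat6a*-/- replicate 3 (0.48, FDR 0.0752). *Kat6a*+/- libraries were at 76.5 to 89.5 CPM with a log2 fold-change of 0.27 (SE 0.07, FDR 0.199), and reached the threshold only without *Kat6a*+/- replicate 3 (0.31, FDR 0.0393), where 2.23% of all genes did. Within the 2 litters that held both genotypes, *Kat6a*-/- libraries were above *Kat6a*+/+ by 0.61 and 0.29 (log2) when proliferating and by 0.58 and 0.36 when differentiating. From proliferating to differentiating NSPCs, *Kat2b* rose in all genotypes, with log2 fold-changes of 1.06 (*Kat6a*+/+, FDR 1.62e-09), 1.104 (*Kat6a*+/-) and 1.04 (*Kat6a*-/-).

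*Kat2a* was 136, 126, 131 and 134 CPM in proliferating *Kat6a*+/+ NSPCs and 128, 117, 124 and 79.8 CPM in *Kat6a*-/-. Replicate 4, the library with the lowest cell-cycle sum, was well below the rest, and the groups overlapped, as did *Kat6a*+/- at 104 to 127 CPM. The log2 fold-change was -0.19 (SE 0.11, FDR 0.203), and -0.07 (FDR 0.571) without that library. In differentiating NSPCs *Kat2a* was 58.0, 52.2, 53.0 and 57.7 CPM in *Kat6a*+/+, and 46.9 to 60.0 CPM in *Kat6a*+/-. *Kat6a*-/- libraries had 40.8, 51.1, 40.1 and 52.1 CPM, with replicates 1 and 3 lowest. All *Kat6a*-/- libraries were below all *Kat6a*+/+ libraries. The fitted fall was -0.41 (SE 0.08, FDR 0.000775) in *Kat6a*-/- against *Kat6a*+/+, and -0.34 (SE 0.09, FDR 0.0117) against *Kat6a*+/-. The size and call depended on the settings, and the first passed in 10 of 18 alternatives. With equal weights the first was -0.27 (FDR 0.0904), without replicate 3 it was -0.21 (FDR 0.417) and without replicate 1 -0.27 (FDR 0.243). It was -0.20 (FDR 0.237) with Y-linked reads as a fixed term and -0.41 (FDR 0.091) with litter as a fixed term. The second passed in 9 of 18 alternatives and was likewise lost without replicate 1 (FDR 0.526) or 3 (FDR 0.707). From proliferating to differentiating *Kat6a*+/+ NSPCs *Kat2a* fell by 1.25 (log2, SE 0.12, FDR 1e-08), to 0.419 of its level.

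The share of *Kat2a* in the summed *Kat2a* and *Kat2b* level per kilobase was 84.5% ± 1.37 (SD, n = 4) in proliferating *Kat6a*+/+ NSPCs. It was 80.8% ± 1.95 in *Kat6a*+/- and 76.98% ± 5.83 in *Kat6a*-/-. In differentiating NSPCs it was 51.9% ± 3.04 in *Kat6a*+/+, 48.1% ± 4.05 in *Kat6a*+/- and 40.8% ± 4.05 in *Kat6a*-/-, so that *Kat2b* was the more abundant of the pair in all 4 *Kat6a*-/- libraries. *Kat2b* was also the more abundant in *Kat6a*+/+ replicate 2 (*Kat2a* share 47.6%) and *Kat6a*+/- replicates 1 and 4 (45.8% and 43.65%). The groups *Kat6a*-/- and *Kat6a*+/+ did not overlap in either condition. The log2 ratio of *Kat2a* to *Kat2b* was lower in *Kat6a*-/- than in *Kat6a*+/+ by 0.68 and 0.65 in proliferating and differentiating NSPCs (differences of -0.679 and -0.65), each with an exact two-sided permutation p of 0.0286, the smallest that 4 against 4 libraries can give. Over the 36 such tests on 4 pairs of genes none passed after adjustment, with an adjusted p of 0.129 for these. With that smallest p, a pass would have needed most of the 36 tests to reach it, so the adjusted result decides nothing.

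**Figure D4:**
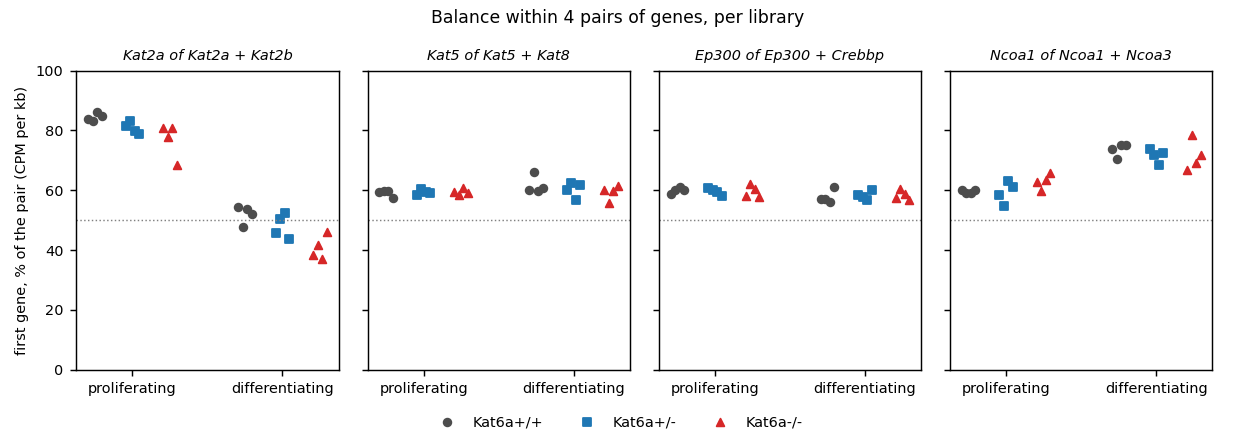
Level of the first gene as a percentage of the summed level of each of 4 pairs (vertical axis, CPM per kilobase), per library and group; the dotted line marks equal levels. The *Kat2a* share drops from 83.1 to 86.2% in proliferating to 47.6 to 54.3% in differentiating *Kat6a*+/+ libraries and lies at 36.9 to 46.1% in differentiating *Kat6a*-/- libraries, whereas the *Ep300* and *Kat5* shares stay near 60%.

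*Hat1* (Entrez 107435; mm39 chromosome 2, 71218392 to 71271966, plus strand), the enzyme for new histone H4, had the largest difference between *Kat6a*-/- and *Kat6a*+/+ among the members, in differentiating NSPCs. In differentiating NSPCs it was 50.4, 46.1, 55.6 and 50.6 CPM in *Kat6a*+/+, against 33.8, 32.9, 28.6 and 34.4 CPM in *Kat6a*-/-, without overlap. *Kat6a*+/- libraries spread from 34.4 to 55.0 CPM, from the top of the *Kat6a*-/- to the top of the *Kat6a*+/+ range. For *Kat6a*-/- against *Kat6a*+/+ the log2 fold-change was -0.77 (SE 0.09, FDR 3.76e-05), a fall to 0.585 of *Kat6a*+/+. It passed in 17 of 18 alternatives (-0.94 to -0.55) and was lost without *Kat6a*-/- replicate 3 (-0.63, FDR 0.0656). Within the 2 litters with both genotypes the differences were -0.74 and -0.82. Against *Kat6a*+/- the fall was -0.53 (SE 0.11, FDR 0.00355), which passed in 14 of 18 alternatives but not without *Kat6a*-/- replicate 1 (FDR 0.207) or 3 (FDR 0.409), while *Kat6a*+/- against *Kat6a*+/+ was -0.24 (SE 0.10, FDR 0.302).

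In proliferating NSPCs *Hat1* was 116, 103, 117 and 109.5 CPM in *Kat6a*+/+, against 105, 97.6, 109.2 and 61.4 CPM in *Kat6a*-/-, where replicate 4 was again the low library and the others overlapped *Kat6a*+/+. The log2 fold-change was -0.24 (SE 0.13, FDR 0.159), and -0.07 (FDR 0.503) without replicate 4. *Hat1* fell from proliferating to differentiating NSPCs by 1.13 (log2) in *Kat6a*+/+, 1.32 in *Kat6a*+/- and 1.49 in *Kat6a*-/- (FDR 2.07e-07 in *Kat6a*+/+). The extra fall in *Kat6a*-/- was -0.36 (95% interval -0.78 to 0.07, FDR 0.249). It passed without proliferating *Kat6a*-/- replicate 4 (-0.60, FDR 0.0122) and with library quality weights (-0.59, FDR 0.0051). The cell-cycle sums were below *Kat6a*+/+ of the same condition in all 8 *Kat6a*-/- libraries, and their part in the *Hat1* result was not tested.

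*Kat5* (Entrez 81601; mm39 chromosome 19, 5653038 to 5660271, minus strand) and *Kat8* (Entrez 67773; chromosome 7, 127511661 to 127525009, plus strand) are the members nearest in family to *Kat6a*. In differentiating NSPCs *Kat5* was tightly grouped, at 50.9, 52.5, 49.9 and 51.6 CPM in *Kat6a*+/+, and 47.1 to 51.3 CPM in *Kat6a*+/-. The *Kat6a*-/- libraries, at 41.7, 43.9, 42.3 and 47.7 CPM, lay below *Kat6a*+/+ without overlap, and the log2 fold-change was -0.24 (SE 0.05, FDR 0.000973), a fall to 0.844. The call held in 15 of 18 alternatives and was lost when litter was a fixed term (FDR 0.142) or when *Kat6a*-/- replicate 1 (FDR 0.126) or 3 (FDR 0.201) was left out. Against *Kat6a*+/- the fall was -0.23 (SE 0.06, FDR 0.00784), which passed in 11 of 18 alternatives but not without *Kat6a*-/- replicate 1 (FDR 0.26) or 3 (FDR 0.374). In proliferating NSPCs *Kat5* was 55.4 to 58.0 CPM in *Kat6a*-/- and 58.1 to 64.7 CPM in *Kat6a*+/+, a small gap without overlap, with a log2 fold-change of -0.11 (SE 0.07, FDR 0.229). *Kat5* was lower in differentiating than in proliferating NSPCs in each genotype, by 0.29, 0.33 and 0.37 on the log2 scale (log2 fold-changes of -0.29, -0.33 and -0.37, FDR 0.000102 in *Kat6a*+/+). On the other strand, *Rnaseh2c* overlaps 17.6% of the exonic bases of *Kat5*, and without the strand setting of the counting its reads cannot be told apart there.

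*Kat8* was 24.7 to 29.9 CPM in proliferating *Kat6a*+/+ and 22.9 to 25.5 CPM in *Kat6a*-/-, with a log2 fold-change of -0.12 (FDR 0.314). In differentiating NSPCs the ranges were 17.2 to 21.5 CPM and 17.6 to 22.2 CPM, and the log2 fold-change was -0.19 (SE 0.08, FDR 0.0731). It passed when *Kat6a*+/+ replicate 2 (FDR 0.0253) was left out, and likewise for *Kat6a*-/- replicates 2 and 4 (FDR 0.00773 and 0.0403). *Kat6a*+/- libraries covered 25.5 to 28.7 CPM and 17.9 to 24.2 CPM in the same conditions. *Kat8* fell from proliferating to differentiating NSPCs by 0.44 (log2, FDR 0.000244) in *Kat6a*+/+. The share of *Kat5* in the summed level of both genes per kilobase stayed at group means of 59.1 to 61.7%. The opposite-strand gene *Prss8* overlaps 3.59% of the exonic bases of *Kat8*.

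*Ep300* (Entrez 328572; mm39 chromosome 15, 81469540 to 81537206, plus strand) and *Crebbp* (Entrez 12914; chromosome 16, 3899192 to 4031861, minus strand) passed no test between the conditions, and their called genotype differences were 0.21 (log2) or smaller in size. In proliferating NSPCs *Ep300* was 174, 187, 181 and 149.9 CPM in *Kat6a*+/+, against 145, 163, 137 and 139 CPM in *Kat6a*-/-, which overlapped at *Kat6a*+/+ replicate 4. The log2 fold-change was -0.21 (SE 0.07, FDR 0.032), a call that held in 8 of 18 alternatives and was lost without *Kat6a*+/+ replicate 1, 2 or 3 or *Kat6a*-/- replicate 1, 3 or 4 (FDR 0.0726 to 0.083). *Crebbp* was 105, 107, 99.1 and 84.9 CPM in *Kat6a*+/+, against 89.5, 85.1, 77.3 and 87.0 CPM in *Kat6a*-/-, where *Kat6a*+/+ replicate 4 lay among the mutant libraries. Its log2 fold-change of -0.20 (SE 0.07, FDR 0.0495) lay at the threshold and passed in 4 of 18 alternatives. It was lost without any one of the 8 libraries other than *Kat6a*+/+ replicate 4 (FDR 0.0633 to 0.137). *Kat6a*+/- libraries were at 146 to 167 CPM for *Ep300* and 83.9 to 94.7 CPM for *Crebbp*.

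In differentiating NSPCs *Ep300* was 152 to 170.2 CPM in *Kat6a*+/+ and 133 to 151 CPM in *Kat6a*-/-, without overlap, and the log2 fold-change of -0.11 (SE 0.05) had an FDR of 0.0741. It passed without *Kat6a*-/- replicate 2 (-0.11, FDR 0.0142). *Crebbp* was 86.6 to 110.2 CPM and 80.9 to 95.8 CPM in the same groups, which overlapped, with a log2 fold-change of -0.18 (SE 0.06, FDR 0.0356). The *Crebbp* call held in 6 of 18 alternatives and was lost without *Kat6a*+/+ replicate 1 or 3 (FDR 0.14 and 0.184) or *Kat6a*-/- replicate 1 or 3 (FDR 0.252 and 0.373). Fitting litter as a fixed term gave -0.06 (FDR 0.743), and within the 2 litters with both genotypes the differences were -0.22 and 0.04. Between the conditions in *Kat6a*+/+ NSPCs, *Ep300* differed by -0.11 (95% interval -0.26 to 0.04, FDR 0.184) and *Crebbp* by 0.02 (95% interval -0.15 to 0.19, FDR 0.858). *Ep300* made up 57.8 to 60.03% of the summed level of the pair per kilobase in the 6 group means.

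*Ncoa1* (Entrez 17977; mm39 chromosome 12, 4297361 to 4557712, minus strand), a coactivator of nuclear receptors, was higher in differentiating than in proliferating *Kat6a*+/+ NSPCs, at 123, 111, 122 and 119 CPM against 85.8, 78.2, 75.0 and 74.7 CPM. The ranges did not overlap, and the log2 fold-change was 0.59 (SE 0.11, FDR 3.75e-05). The same difference was 0.39 (FDR 0.00265) in *Kat6a*+/- and 0.23 (SE 0.11, FDR 0.0603) in *Kat6a*-/-, where it passed in 5 of 18 alternatives. The difference between the *Kat6a*-/- and *Kat6a*+/+ values was -0.36 (95% interval -0.67 to -0.05), with an unadjusted limma p of 0.0257 and an FDR of 0.111.

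The *Ncoa1* values of *Kat6a*-/- libraries were 99.1, 78.2, 86.2 and 106 CPM when proliferating, replicates 1, 3 and 4 above all *Kat6a*+/+ libraries. They were 97.4, 139, 99.3 and 101 CPM when differentiating, 3 libraries below and replicate 2 above all *Kat6a*+/+ libraries. *Kat6a*+/- libraries lay at 76.7 to 89.0 CPM and 101 to 118 CPM in the same conditions. The log2 fold-change against *Kat6a*+/+ was 0.25 (SE 0.09, FDR 0.0535) when proliferating and -0.26 (SE 0.06, FDR 0.00341) when differentiating. The first passed without *Kat6a*-/- replicate 2 (0.32, FDR 0.0172) and with DESeq2 (0.27, FDR 0.0394). The second held in 10 of 18 alternatives. It was -0.13 (FDR 0.40) with equal weights, -0.04 (FDR 0.896) without *Kat6a*-/- replicate 1, and 0.00 (-0.002, FDR 0.997) without replicate 3. Without differentiating *Kat6a*-/- replicate 2 the interaction passed (-0.54, FDR 0.00398).

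*Ncoa3* (Entrez 17979; mm39 chromosome 2, 165834534 to 165915162, plus strand) showed no genotype difference past the threshold. Its group means were 50.7, 54.0 and 51.7 CPM in proliferating and 40.6, 41.0 and 40.7 CPM in differentiating *Kat6a*+/+, *Kat6a*+/- and *Kat6a*-/- NSPCs, with SDs of 2.83 to 4.66 CPM. The *Kat6a*-/- log2 fold-changes were 0.05 (FDR 0.654) and 0.08 (FDR 0.389). *Ncoa3* was lower in differentiating *Kat6a*+/+ NSPCs (-0.34, SE 0.08, FDR 0.00103) and in both mutant genotypes (-0.39 and -0.35). *Sulf2* overlaps 1.83% of its exonic bases on the other strand. The share of *Ncoa1* in the summed level of the pair per kilobase was 59.6% ± 0.556 in proliferating and 73.6% ± 2.22 in differentiating *Kat6a*+/+ NSPCs. The log2 ratio was higher by 0.92 when differentiating (exact two-sided permutation p of 0.0286, adjusted p of 0.129 over the 36 tests).

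**Figure D5:**
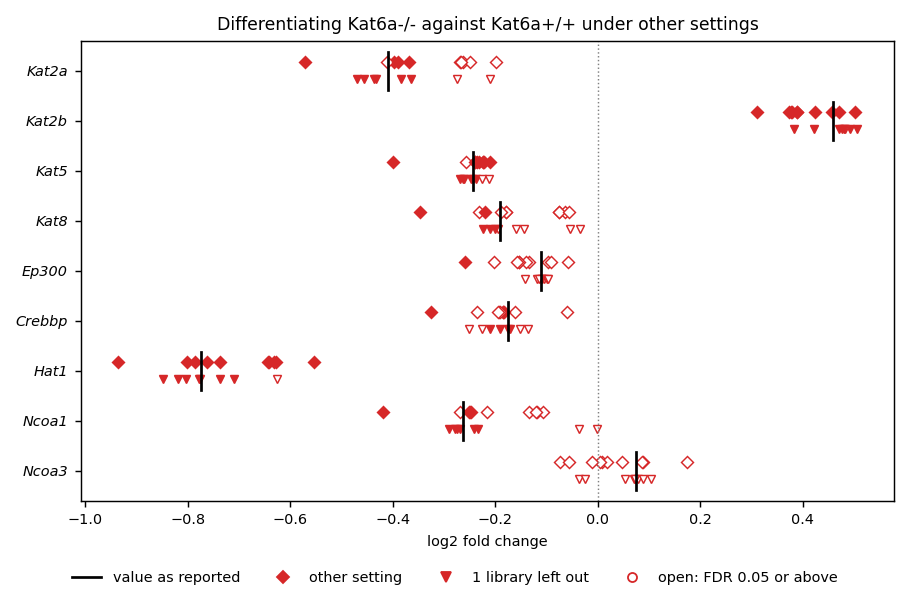
Log2 fold-change of differentiating *Kat6a*-/- against *Kat6a*+/+ NSPCs (horizontal axis) for each gene as reported (black bars), under other settings (diamonds) and with 1 library left out (triangles); open symbols have an FDR of 0.05 or above. *Hat1* stays between -0.94 and -0.55 and *Kat2b* between 0.31 and 0.51, and *Ncoa1* reaches -0.002.

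The partner subunits and related enzymes, the members themselves left out, were counted in lists drawn up by known complex. In differentiating *Kat6a*-/- against *Kat6a*+/+ NSPCs, 15 of 17 subunits of the NuA4 complex of KAT5 passed as lower and 2 as higher, with a median log2 fold-change of -0.34, beside -0.02 over all genes, of which 27.7% were lower and 26.7% higher. They include *Ep400*, its chromatin remodelling subunit (-0.52, FDR 4.53e-05), and *Mbtd1*, a methyl-histone reader (-0.81, FDR 4.45e-05). Of 8 genes for HAT1 partners and H3-H4 chaperones 6 were lower and 1 higher, with a median of -0.79, among them *Chaf1b* of the replication chaperone CAF-1 at 2.45 against 13.2 CPM (-2.61, FDR 2.59e-06) and *Asf1b* at 2.91 against 13.7 CPM (-1.996, FDR 5.01e-06). SAGA and ATAC had 13 of 25 subunits lower and 2 higher (median -0.18), with *Usp22*, the deubiquitinase of SAGA, at -0.45 (FDR 0.00026). The MSL and NSL list had 5 of 12 lower and 0 higher (median -0.12), including *Msl2* at -0.42 (FDR 0.000142).

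Against the same 27.7% lower and 26.7% higher over all genes, 5 of 13 partners of CREBBP and EP300 were lower, such as *Creb1*, the cAMP response factor (-0.60, FDR 4.31e-06), and 3 higher, such as *Cited2* (1.31, FDR 6.54e-06), with a median of -0.03. Of 14 nuclear receptors served by NCOA1 and NCOA3, 7 were higher and 3 lower (median 0.40), including *Rarg*, a retinoic acid receptor (1.48, FDR 7.96e-06). Histone deacetylases, the opposing enzymes, had 9 of 15 lower and 1 higher (median -0.28), with *Sirt1* at -0.58 (FDR 7.84e-05) and *Hdac7*, the one that was higher, at 1.22 (FDR 0.000182). The other acetyltransferases had 4 of 11 lower and 2 higher (median -0.06), including *Atat1*, the tubulin acetyltransferase (-0.91, FDR 0.000261).

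In proliferating *Kat6a*-/- against *Kat6a*+/+ NSPCs, 16.2% of all genes were higher and 13.8% lower. List counts of higher and lower genes were 0 and 2 of 17 for NuA4 (median -0.16), 3 and 2 of 25 for SAGA and ATAC (0.05), 1 and 4 of 12 for MSL and NSL (-0.07), 1 and 3 of 12 for CREBBP and EP300 partners (-0.17), 0 and 2 of 8 for HAT1 partners and chaperones (-0.27), 1 and 3 of 15 for deacetylases (-0.12), 4 and 1 of 11 for nuclear receptors (0.09), and 2 and 2 of 11 for other acetyltransferases (0.00, at -0.003), beside a median of -0.005 over all genes. *Taf9b*, a TAF9 paralogue found in SAGA, was at 24.7 against 11.2 CPM (log2 fold-change 1.15, SE 0.14, FDR 0.000131). *Ncoa2*, the third gene of the NCOA family, fell by 0.32 (FDR 0.00212), and *Kat7* of the MYST family by 0.22 (FDR 0.0102). *Rarb*, a retinoic acid receptor, rose by 1.96 (FDR 0.000197), and *Hdac5* fell by 1.04 (FDR 0.00147). No gene of any list passed in *Kat6a*+/- NSPCs in either condition.

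From proliferating to differentiating *Kat6a*+/+ NSPCs, 7 of 8 HAT1 partners and chaperones were lower and 1 higher (median -1.18), 13 of 17 NuA4 subunits lower and 1 higher (median -0.44), 12 of 25 SAGA and ATAC subunits lower and 4 higher (median -0.16), and 4 of 12 MSL and NSL subunits lower and 1 higher (median -0.08). Of 15 deacetylases 7 were lower and 5 higher (median -0.15), of 13 partners of CREBBP and EP300 5 and 4 (-0.15), of 11 other acetyltransferases 5 and 4 (-0.22), and of 14 nuclear receptors 4 and 7 (0.92). Over all genes 36.2% were lower and 36.7% higher, with a median of 0.02.

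The list counts of differentiating *Kat6a*-/- against *Kat6a*+/+ NSPCs shrank without *Kat6a*-/- replicate 3 or 1. Without replicate 3 they were 1 of 17 for NuA4, 0 for SAGA and ATAC, 0 for MSL and NSL, 2 for CREBBP and EP300 partners, 4 of 8 for HAT1 partners and chaperones, 0 for deacetylases, 1 for nuclear receptors and 1 for other acetyltransferases. Without replicate 1 they were 2, 1, 0, 2, 4, 1, 1 and 1 in the same order. Over all genes, 6.99% passed without replicate 3 and 9.01% without replicate 1.

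As a description of how the members varied between libraries, log2 CPM were centred within each condition and correlated over the 24 libraries, which share genotype, litter and depth. *Kat2a* and *Hat1* varied together (Pearson's r of 0.79), as did *Ep300* and *Crebbp* (0.77), while *Kat2b* varied against *Hat1* (-0.74) and *Kat2a* (-0.63). Among all protein-coding genes tested, those most like *Hat1* were *Ctbp1* (0.952) and *Tfdp1*, the dimer partner of E2F factors (0.948). Those most like *Kat2a* were *Mllt1* (0.913) and *Nup85* (0.89), and those most like *Kat2b* were *Speg* (0.881) and *Cdkn2b*, a cyclin-dependent kinase inhibitor (0.857). *Ep300* was most like *Bptf*, a subunit of the NURF remodelling complex (0.849), and *Prdm2* (0.831), and *Crebbp* most like *Lcor* (0.835) and *Pcnt* (0.772). *Kat5* was most like *Cadps* (0.872) and *Otx1* (0.865), *Kat8* like *Zfp825* (0.728) and *Gabra2* (0.713), *Ncoa1* like *Srr* (0.858), and *Ncoa3* like *Prrc2b* (0.708) and *Zscan18* (0.707).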

How the data were processed

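Per the labels and the study's methods, total RNA of NSPCs from single embryos was made into stranded polyadenylated-RNA libraries from 200 ng. The authors aligned reads to mm39 with Rsubread and deposited raw counts per gene from featureCounts with a strict RefSeq annotation. The strand setting of the counting and the software versions used for these RNA libraries are not given in the sources used here.

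Counts were analysed with the study's design. Protein-coding genes (21030 of 26359 matched by Entrez identifier) passing filterByExpr of edgeR 4.0.16 were kept, without *Xist* and Y-unique genes, and scaled by TMM factors. The 12 proliferating libraries were fitted with limma-voom (limma 3.58.1) and a random litter effect (estimated correlation 0.287). The 12 differentiating libraries were fitted with limma-trend (prior count 2) and arrayWeights, so a fitted fold-change can differ from the ratio of mean CPM. All 24 were fitted with limma-voom and a random litter effect (correlation 0.00365) for the conditions and interactions, and fits without 1 library kept that correlation. These fits tested 12276, 13339 and 13590 genes. Benjamini-Hochberg adjustment ran over all genes tested, and a gene was called at FDR under 0.05. CPM used TMM factors of all 24 libraries and no weights. Per-length levels divide by the deposited gene length.

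Alternatives were other scaling, no filter, edgeR, DESeq2 1.42.0, litter or Y-linked reads as fixed terms, a replicate block, no litter block, other weights, the pipeline of the other condition and leaving out each library. For the fits of all 24 libraries, the embryo label as the random block was a further alternative. Named genes were all 9 members and, from each list and condition, the 2 listed genes with the smallest p in *Kat6a*-/- against *Kat6a*+/+, of which some are printed. Likeness was by the 2 highest values of Pearson's r, of which 1 gene is not reported here. The members and lists were chosen with earlier results of these data known. Positions are from the GENCODE annotation of GRCm39, and promoter windows from a RefSeq table of GRCm38.p6. The fits were tested on simulated counts. Any pair of replicates differed by a chi-square of at least 5.55 per degree of freedom, beyond sampling noise.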

Additional observations from a re-analysis of the deposited data

Results flagged for a closer look

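Single libraries far from the rest of their group were sought in 54 groups of 4, where chance marks about 1 in 20, and 2 were found past Dixon's critical value. *Kat8* was 17.2 CPM in differentiating *Kat6a*+/+ replicate 2, where the other 3 had 21.0 to 21.5 CPM (gap 0.902 of the range). *Ncoa1* was 139 CPM in differentiating *Kat6a*-/- replicate 2, where the other 3 had 97.4 to 101 CPM (gap 0.909 of the range), and this library had 4.2% of the quality weight of its group.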

How the results depend on the processing

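Of 1926 recomputed values of the 9 members over all alternatives, 1808 stayed on the same side of the threshold, 89 lost a call and 29 gained one. Among the 1808, 97 values that were not called changed sign, and 0 called values reversed. The 7, 7 and 6 members called between the conditions in *Kat6a*+/+, *Kat6a*+/- and *Kat6a*-/- NSPCs stayed called in every alternative, with 6 to 7 in *Kat6a*-/- when leaving out 1 library. *Ncoa1* was also called in *Kat6a*-/- with edgeR (FDR 0.0496), DESeq2 (FDR 0.0368) and scaling by RLE size factors (FDR 0.0478). Counts of members called in *Kat6a*-/- against *Kat6a*+/+ proliferating NSPCs went from 3 to 1 with edgeR, litter as a fixed term, Y-linked reads as a fixed term or no litter block. Leaving out 1 library made them 1 to 3, where the share of all genes called ran from 18.7% to 27.9%. In differentiating NSPCs they went from 6 to 3 with edgeR, DESeq2, Y-linked reads, no quality weights or the pipeline of the other condition, to 2 with litter as a fixed term, and to 0 to 8 when leaving out 1 library, where the share of all genes called ran from 6.99% to 70.6%. Against *Kat6a*+/-, the proliferating count went from 1 to 0 with no low-count filter, edgeR, DESeq2, no litter block, the pipeline of the other condition or the replicate block. Leaving out 1 library made it 0 to 1, where the share of all genes called ran from 5.64% to 17.8%. The differentiating count went from 3 to 7 with library totals, to 1 with edgeR, Y-linked reads or no quality weights, and to 0 with litter as a fixed term or the pipeline of the other condition. Leaving out 1 library made it 0 to 6, where the share of all genes called ran from 1.81% to 55.0%. For *Kat6a*+/- against *Kat6a*+/+ in differentiating NSPCs, 0 became 1 without *Kat6a*+/- replicate 3 (range 0 to 1), where 2.23% of all genes were called. The interaction count for *Kat6a*-/- went from 0 to 1 with library totals, to 2 with quality weights and to 0 to 1 when leaving out 1 library. Library totals moved the median of all genes to -0.17 in differentiating *Kat6a*-/- against *Kat6a*+/+, -0.12 against *Kat6a*+/- and -0.15 in the interaction. The cause of these changes was not tested. Within a condition, same-numbered libraries of different genotypes correlated at -0.43 to 0.55 when proliferating and -0.48 to 0.16 when differentiating. Different-numbered ones correlated at -0.49 to 0.39 and -0.41 to 0.505, so the numbers were not taken to pair genotypes within a condition. Between the conditions, most of the embryos named in both sets had the same replicate number in each. The replicate block moved no other count of calls by over 1.5 times (2 proliferating and 7 differentiating members in *Kat6a*-/- against *Kat6a*+/+). Within the 2 litters that held both genotypes, the difference had the fitted sign in both for 15 of 18 member and condition pairs. The libraries of these litters are also part of the fits, so this count is no independent check of the sign. The share over all genes was not computed. Depth limits the members little, at 195 counts or more in every library.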
